A study of Mus musculus with 4 samples.

Results

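A group of 10 transcription factors and partners of skeletal development was followed here in connective tissue cells of the mouse limb that had lost the zinc finger factor Osr1. These were the Runx factors Runx1, Runx2 and Runx3 with their common partner Cbfb, the osteoblast factor Sp7, the GATA-type repressor Trps1, and the homeobox factors Dlx5, Dlx6, Msx1 and Msx2. These 10 genes were chosen by name from the 23284 genes in the files, with earlier results of these data known. All 10 were among the 15645 genes with enough reads to be tested. RNA was sequenced from limb cells of E13.5 C57BL/6J embryos, 2 of genotype Osr1 GCE/+ and 2 of genotype Osr1 GCE/GCE. In the GCE allele a cassette of eGFP and tamoxifen-inducible CreERt2 sits in the Osr1 locus, so GFP reports Osr1 promoter activity. Limbs were digested with collagenase, and live GFP-positive cells, which excluded propidium iodide, were sorted by FACS. Both genotypes therefore carried the knock-in: GCE/+ cells kept 1 intact Osr1 copy, GCE/GCE cells had none, and wild-type cells are not among these samples. A GFP gate on a disrupted locus can keep cells with an active Osr1 promoter although Osr1 is lost. GCE/+ cells carried 1 copy of GFP and GCE/GCE cells 2. Whether the gate took the same cells in both genotypes was not tested. Each library is 1 embryo.

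Runx proteins bind DNA through the Runt domain as heterodimers with Cbfb, which does not contact DNA itself but raises the affinity of the complex. Runx2 directs mesenchymal cells into the osteoblast lineage and drives chondrocyte hypertrophy, with Sp7 acting downstream of it in osteoblasts, while Trps1 binds Runx2 and represses its targets. Dlx5 and Dlx6 form a linked, convergently transcribed gene pair active in skeletal precursors and in the apical ectodermal ridge of the limb bud, and Msx1 and Msx2 are BMP-responsive homeobox repressors that keep progenitors undifferentiated.

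The libraries held between 52121596 and 61402140 counts, so that 3 counts, taken as the floor of detection, stood for 0.0490 to 0.0574 CPM, the counts scaled per 1e+06 of library size. Osr1 itself measured 81.9 and 79.1 CPM in the GCE/+ embryos against 11.9 and 13.9 CPM in the GCE/GCE embryos, which matches the labels. Markers of chondrocytes were higher and markers of macrophages lower in GCE/GCE cells, and their values stand beside the results below. The fibroblast markers Pdgfra, Vim and Col1a2 were abundant in all 4 libraries, with Pdgfra between 833 and 977 CPM. The 8 fibroblast markers summed to 18311 and 16815 CPM in GCE/+ and to 15679 and 14071 CPM in GCE/GCE embryos. Of the 8, 7 were below 0 in log2 fold change (median -0.32), among them Osr1, the disrupted gene itself. Xist stood at 1142 CPM in GCE/GCE replicate 1 and did not exceed 2.63 CPM elsewhere.

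The members differed widely in level. Levels between genes were compared as CPM per kilobase of the longest annotated transcript. Cbfb stood far above the rest with a GCE/+ mean of 73.5 CPM per kb, and was followed by Trps1 at 9.72, Runx1 at 6.45 and Runx2 at 5.34. Dlx5 came next at 2.89, then Runx3 at 2.16 and Msx2 at 1.07 CPM per kb. Sp7 at 0.535, Msx1 at 0.506 and Dlx6 at 0.251 CPM per kb closed the order, and the ranges of Sp7 and Msx1, and of Msx1 and Dlx6, overlapped between the GCE/+ embryos. All other neighbours were separated in both GCE/+ embryos. In GCE/GCE cells the order of the abundant genes changed at 1 place, where Runx2 with a mean of 11.1 CPM per kb passed Runx1 with 7.84. Dlx6 and Msx1 also changed places, but their GCE/GCE ranges overlapped. With the median transcript length in place of the longest, Runx2 stood above Runx1 already in GCE/+ cells, and 8 of the 10 places were kept.

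Of the 10 factors, 2 rose in GCE/GCE cells, Runx2 and Trps1, and none fell, at a p under 0.1 after Benjamini-Hochberg adjustment of edgeR's quasi-likelihood test. Among all genes tested 1.82% passed this test in either direction, and 0.895% passed as higher. The GCE/GCE values of 6 factors lay wholly above the GCE/+ values (Runx1, Runx2, Trps1, Sp7, Dlx5 and Dlx6) and none lay wholly below, where 19.2% of all genes lay wholly above and 38.4% did not overlap in either direction. At an unadjusted p under 0.05 edgeR placed 4 of the 10 as higher (Runx2, Trps1, Dlx5 and Dlx6), against 5.62% of all genes. The median log2 fold change of the 10 was 0.33, against 0.003 over all genes tested. The 10 were chosen with earlier results of these data known, so these shares are descriptions only. Across genes the fit pools the spread between embryos, while an exact permutation test of 2 against 2 embryos on a single gene cannot go below p = 0.333.

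**Figure D1:**
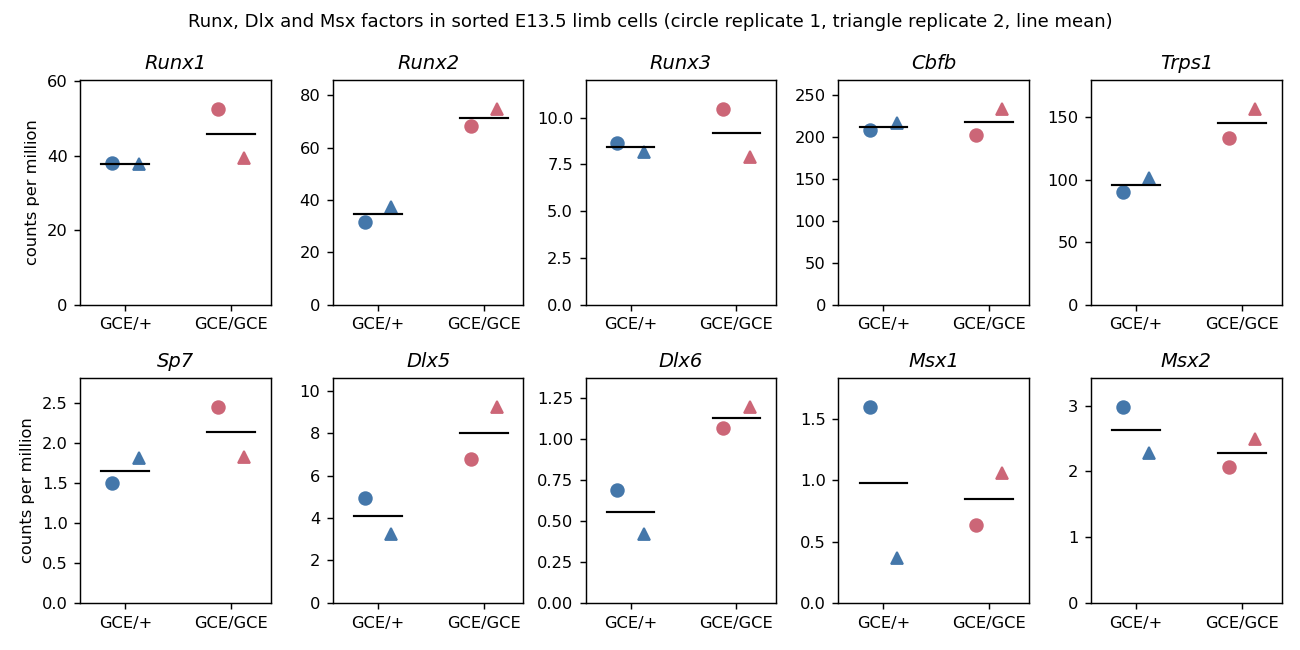
CPM of the 10 factors in each sorted E13.5 limb sample, one panel a gene with its own linear axis from 0; circles are replicate 1, triangles replicate 2, blue GCE/+, red GCE/GCE, and lines the mean of 2 embryos. Runx2 and Trps1 are higher in both GCE/GCE embryos, Dlx5 and Dlx6 also separate with wider spread, and the other panels overlap or nearly touch, as for Msx1, whose lowest and highest points are both GCE/+.

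Runx2 doubled. It measured 31.6 and 37.4 CPM in the GCE/+ embryos and 68.2 and 74.7 CPM in the GCE/GCE embryos, from 1922, 1956, 3957 and 4573 counts. The lower GCE/GCE value was well above the higher GCE/+ value, and the gap exceeded the spread within either genotype. The means were 34.5 ± 4.13 and 71.4 ± 4.63 CPM (SD, n = 2 each), a ratio of 2.07. The log2 fold change was 1.05 (SE 0.11, 95% interval 0.81 to 1.30) with an adjusted p of 0.0121 (edgeR). Runx2 ranked 9 among all 15645 genes by p, and 41 of the 140 genes called higher by size of change. The Runx2 change passed the threshold under 14 of 14 alternative settings, with log2 fold changes from 0.93 to 1.18.

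Runx1, best known from blood stem cells and also expressed in skeletal mesenchyme, separated between genotypes without passing the test. It measured 37.9 and 37.7 CPM in GCE/+ and 52.5 and 39.3 CPM in GCE/GCE embryos, so that the genotypes did not overlap but GCE/GCE replicate 2 lay close to the GCE/+ pair. Its log2 fold change was 0.28 (SE 0.13, 95% interval -0.02 to 0.59), with an adjusted p of 0.531 (edgeR). Without GCE/GCE replicate 2 the log2 fold change was 0.48 with an adjusted p of 0.0766 in the same test, the 1 setting of 14 in which Runx1 passed, and without GCE/GCE replicate 1 it was 0.05.

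Runx3, which acts in sensory neurons and together with Runx2 in cartilage, measured 8.65 and 8.15 CPM against 10.5 and 7.89 CPM. The GCE/GCE embryos lay on either side of the GCE/+ pair, and the log2 fold change of 0.13 (SE 0.17, 95% interval -0.25 to 0.51) had an adjusted p of 0.922 (edgeR). Cbfb measured 208 and 217 CPM against 203 and 234 CPM, also with overlap. The Cbfb log2 fold change was 0.04 (SE 0.09) and its 95% interval ran from -0.17 to 0.25, the narrowest of the 10 factors.

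With Runx2 higher, the make-up of the Runx group shifted. Per kilobase, Runx2 supplied 36.0% and 40.4% of the summed Runx1, Runx2 and Runx3 level in the GCE/+ embryos and 47.5% and 57.0% in the GCE/GCE embryos, with no overlap. The summed level was 13.6 and 14.3 CPM per kb in GCE/+ against 22.2 and 20.3 CPM per kb in GCE/GCE. Cbfb exceeded this sum in every library, by a factor of 5.30 and 5.24 in GCE/+ and of 3.16 and 3.98 in GCE/GCE. These proportions depend on the transcript length used. Per kilobase of the median transcript Runx2 supplied 55.3% and 59.96% of the sum in GCE/+ and 66.6% and 74.5% in GCE/GCE, and Cbfb exceeded the sum by a factor of 3.02 and 2.88 in GCE/+ and of 1.64 and 1.93 in GCE/GCE. With either length the genotypes did not overlap. In raw counts Runx2 was below Runx1 in both GCE/+ embryos, with ratios of 0.832 and 0.993, and above it in both GCE/GCE embryos, with ratios of 1.30 and 1.90. These ratios are descriptions of 4 libraries, and the change of Runx2 was not tested against that of Runx1 or Runx3.

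**Figure D2:**
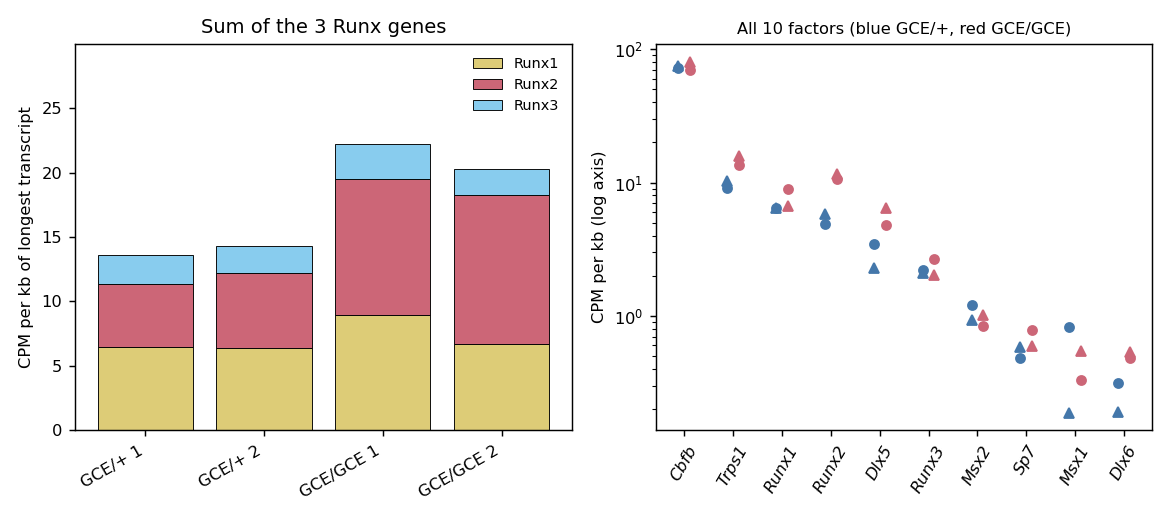
Left, CPM per kb of longest transcript of Runx1, Runx2 and Runx3 stacked in each embryo on a linear axis from 0; right, CPM per kb of all 10 factors on a log axis, blue GCE/+, red GCE/GCE, circle replicate 1, triangle replicate 2. The stacks reach 13.6 and 14.3 in GCE/+ and 22.2 and 20.3 in GCE/GCE, with most of the added height in the Runx2 segment, and Cbfb lies near the top of the log axis in all 4 embryos.

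The start-site sequences of the 3 Runx genes are shown because Runx factors bind the letters ACCACA, which read as TGTGGT on the other strand, and each of these genes carries such letters at 1 of its start sites. RefSeq windows of 300 bases on GRCm38.p6, from 250 bases before to 50 after a start site, matched 6 of the 10 members, with 8 windows in all (2 each for Runx1 and Runx3, 1 each for Runx2, Cbfb, Msx1 and Msx2). The windows were read on the gene's strand, 5′ to 3′, at chr17:44814578-44814877 (minus strand) for Runx2, chr16:92826025-92826324 (minus strand) for Runx1 and chr4:135120395-135120694 (plus strand) for Runx3. Capitals mark each ACCACA.
Runx2: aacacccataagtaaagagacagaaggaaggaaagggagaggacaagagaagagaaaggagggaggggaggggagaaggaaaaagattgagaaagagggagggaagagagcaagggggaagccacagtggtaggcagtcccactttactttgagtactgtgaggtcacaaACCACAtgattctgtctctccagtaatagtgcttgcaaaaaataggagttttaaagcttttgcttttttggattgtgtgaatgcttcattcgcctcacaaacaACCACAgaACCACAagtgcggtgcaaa
Runx1: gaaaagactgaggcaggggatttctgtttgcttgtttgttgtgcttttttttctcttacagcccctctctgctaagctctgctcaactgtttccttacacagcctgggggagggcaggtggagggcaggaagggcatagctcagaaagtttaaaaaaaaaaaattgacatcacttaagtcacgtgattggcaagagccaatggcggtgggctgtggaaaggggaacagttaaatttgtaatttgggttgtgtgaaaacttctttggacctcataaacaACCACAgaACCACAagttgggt
Runx3: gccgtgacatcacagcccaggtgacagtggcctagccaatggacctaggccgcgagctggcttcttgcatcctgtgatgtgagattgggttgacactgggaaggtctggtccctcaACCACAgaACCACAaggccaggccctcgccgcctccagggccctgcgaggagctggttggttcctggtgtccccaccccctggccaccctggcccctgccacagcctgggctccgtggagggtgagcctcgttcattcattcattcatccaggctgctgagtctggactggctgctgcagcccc
The Runx2 window held ACCACA 3 times, beginning at -80, 24 and 32 relative to the start site. Runx1 held it at 29 and 37, and Runx3 at -134 and -126. Either strand of ACCACA occurred in 16.8% of 32851 promoter windows, and 2 or more copies in 1.8%. A tandem of 2 copies parted by 2 bases stood in only 7 of the 32851 windows (0.021%), and these included the 3 Runx windows above and 1 window of Gm16225, which overlaps that of Runx3 on the opposite strand. The 3 Runx windows shared the 18-base run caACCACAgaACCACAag, and the Runx1 and Runx2 windows shared 22 bases, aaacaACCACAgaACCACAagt. The second windows of Runx1 and Runx3, and those of Cbfb, Msx1 and Msx2, held no ACCACA. Of these 3 genes Runx2 alone rose past the threshold, and the counts per gene do not separate transcripts from different start sites. Matches of letters are descriptions and not binding sites.

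Sp7, the zinc finger factor required for osteoblasts downstream of Runx2, stayed low. It measured 1.49 and 1.82 CPM in GCE/+ and 2.45 and 1.83 CPM in GCE/GCE embryos, from 91, 95, 142 and 112 counts. Only GCE/GCE replicate 1 stood apart, replicate 2 being level with GCE/+ replicate 2. The log2 fold change was 0.37 (SE 0.24, 95% interval -0.17 to 0.92) with an adjusted p of 0.716 (edgeR), and it lay between 0.14 (without GCE/GCE replicate 1) and 0.57 (without GCE/GCE replicate 2) with 1 embryo left out. It was 0.23 without GCE/+ replicate 1. Runx2 counts were 21.1 and 20.6 times those of Sp7 in GCE/+ and 27.9 and 40.8 times in GCE/GCE embryos.

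Trps1, the repressor that is mutated in tricho-rhino-phalangeal syndrome and is active in growth plate and joint-forming cells, rose in both GCE/GCE embryos. It measured 90.4 and 101 CPM in GCE/+ and 134 and 157 CPM in GCE/GCE embryos, and the genotypes did not overlap. The means were 95.8 ± 7.66 and 145 ± 16.2 CPM (SD, n = 2 each), a ratio of 1.51. The log2 fold change was 0.60 (SE 0.10, 95% interval 0.36 to 0.83) with an adjusted p of 0.0428 (edgeR). Trps1 ranked 121 of 15645 genes by p and 95 of the 140 higher genes by size. Its adjusted p was 0.109 with no filter on low counts and 0.105 without GCE/+ replicate 1, the settings of 14 in which it missed the threshold. The Trps1 counts were 2.86 and 2.71 times those of Runx2 in GCE/+ and 1.96 and 2.10 times in GCE/GCE, so the ratio of the repressor to Runx2 transcripts was lower in both GCE/GCE embryos although both genes rose. Longer transcripts tended to be higher in GCE/GCE cells (Spearman's rho 0.256 across genes, which are not independent replicates), and Trps1 with 9859 bases and Runx2 with 6463 bases are the longest of the 10. With offsets for this trend the log2 fold change of Trps1 was 0.46 (adjusted p 0.0890, edgeR quasi-likelihood test) and that of Runx2 0.98 (adjusted p 0.0157).

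Dlx5 and Dlx6 were higher in both GCE/GCE embryos with similar fitted changes, yet neither passed the edgeR test. Dlx5 measured 4.96 and 3.25 CPM in GCE/+ and 6.79 and 9.21 CPM in GCE/GCE embryos, with no overlap between genotypes. The log2 fold change was 0.96 (SE 0.23, 95% interval 0.42 to 1.49) with an adjusted p of 0.125 (edgeR). DESeq2 called Dlx5 higher with an adjusted p of 0.00891, so that 3 of the 10 factors passed by that tool, beside 3.45% of all genes in either direction and 1.77% as higher. The replicates of each genotype differed more for Dlx5 than for Runx2 or Trps1.

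Dlx6, its neighbour, was scarce, with 42 and 22 counts in GCE/+ and 62 and 73 counts in GCE/GCE embryos. In CPM these were 0.690 and 0.421 against 1.07 and 1.19, again with no overlap. The log2 fold change was 1.01 (SE 0.31, 95% interval 0.30 to 1.71) with an adjusted p of 0.228 (edgeR). The ratio of Dlx5 to Dlx6 counts was 7.19 and 7.73 in GCE/+ and 6.35 and 7.73 in GCE/GCE, and the 2 genotypes overlapped in this ratio. The antisense transcript Dlx6as1 at the same locus measured 0.591 and 0.497 CPM against 0.534 and 0.719 CPM, with overlap.

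Msx1 and Msx2, by contrast, showed no separation. Msx1 measured 1.59 and 0.363 CPM in GCE/+ embryos, and 0.637 and 1.06 CPM in GCE/GCE embryos, from 97, 19, 37 and 65 counts. The GCE/+ pair held both the highest and the lowest value, and the 95% exact Poisson intervals of these libraries, 1.29 to 1.94 and 0.219 to 0.567 CPM, did not meet. Those intervals cover counting error only. The log2 fold change of -0.24 (SE 0.56, 95% interval -1.51 to 1.04) had an adjusted p of 0.964 (edgeR), and it was 1.22 without GCE/+ replicate 1 and 0.07 without GCE/GCE replicate 1. No direction can be given for Msx1 from these libraries.

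Msx2 measured 2.97 and 2.28 CPM against 2.07 and 2.50 CPM, with overlap. Its log2 fold change was -0.20 (SE 0.22, 95% interval -0.71 to 0.30) with an adjusted p of 0.881 (edgeR). It was -0.00061 without GCE/+ replicate 1, -0.08 without GCE/GCE replicate 1, -0.35 without GCE/GCE replicate 2 and -0.38 without GCE/+ replicate 2. The Msx2 to Msx1 count ratio ranged from 1.87 to 6.26 within the GCE/+ pair alone.

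**Figure D3:**
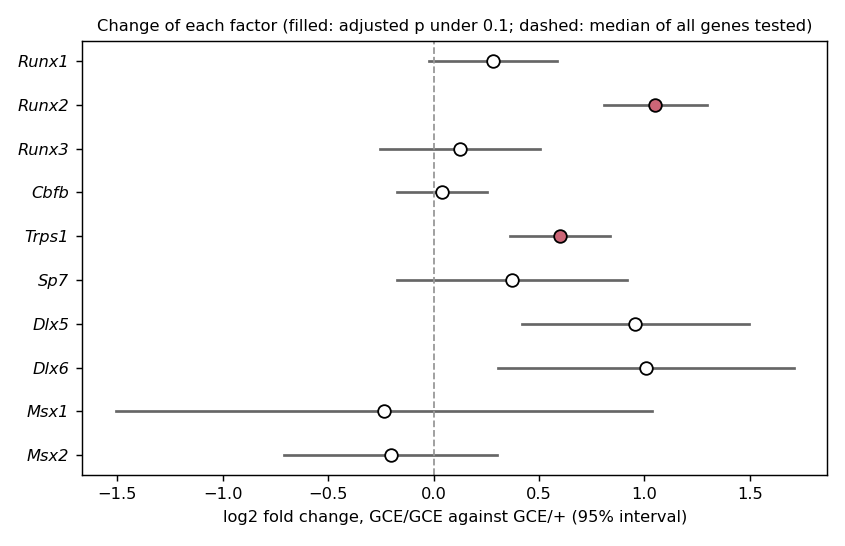
Log2 fold change of each factor, GCE/GCE against GCE/+ (x axis), with 95% intervals from the edgeR fit as horizontal lines; filled points passed an adjusted p of 0.1, and the dashed line is the median of all genes tested. The intervals of Runx2, Trps1, Dlx5 and Dlx6 lie above 0, the first pair filled, and the Msx1 interval of -1.51 to 1.04 is the widest.

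Several of these genes share their locus with another transcript, and whether counting used strand was not given in the sources used here. In the GRCm38 annotation Runx2 shares 519 exonic bases with the antisense gene Runx2os1, and Runx1 106 with the antisense gene Gm26626, neither of which is a row of the files under these names. Supt3h, which overlaps Runx2 on the opposite strand with no shared exonic base, averaged 9.84 ± 0.230 CPM against 11.4 ± 1.12 CPM (SD, n = 2 each, log2 fold change 0.22, SE 0.13). Msx1as, antisense to Msx1, had 20, 12, 10 and 24 counts. Reads from antisense partners that share exons cannot be told apart without strand.

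Runx2 was higher in GCE/GCE cells, while no osteoblast gene passed the edgeR test. The 8 osteoblast markers summed to 80.0 and 73.4 CPM in GCE/+ and 80.4 and 72.2 CPM in GCE/GCE embryos. None of the 6 tested passed in either direction. Phex made up most of these sums, at 51.5 and 50.1 CPM against 57.7 and 52.6 CPM with no overlap (log2 fold change 0.12, SE 0.09). Bglap2 had no count in any library and Bglap was at or below the floor, while Ibsp measured 2.97 and 2.01 CPM against 2.31 and 1.05 CPM. Spp1, which encodes osteopontin, measured 14.8 and 12.1 CPM against 9.41 and 8.53 CPM (log2 fold change -0.58, SE 0.15, adjusted p 0.131 by edgeR's quasi-likelihood test). Among a wider list of 20 osteoblast matrix and signalling genes 16 were tested and none passed, with a median log2 fold change of -0.05. The most abundant were the type I collagen genes Col1a2 and Col1a1, the matrix glycoprotein gene Sparc and the cadherin gene Cdh11, with log2 fold changes of -0.12, -0.16, -0.22 and 0.17. DESeq2 called 1 of the wider list, Spp1, as lower. At an unadjusted p under 0.05 edgeR placed 2 as higher, Panx3 and Tnfrsf11b, and 1 as lower, Spp1. Panx3 measured 0.788 and 2.08 CPM in GCE/+ against 2.79 and 2.68 CPM in GCE/GCE embryos. Tnfrsf11b measured 4.06 and 3.06 CPM against 5.86 and 4.97 CPM, and neither gene overlapped between genotypes.

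Chondrocyte markers moved with Runx2 and Trps1. All 18 tested markers of 19 had a log2 fold change above 0 (median 0.89), and 6 passed as higher, namely the chondrogenic factors Sox9, Sox5 and Sox6 and the cartilage collagens Col9a1, Col9a2 and Col11a1. Their summed level was 1032 and 1522 CPM in GCE/+ and 2153 and 2315 CPM in GCE/GCE embryos. Within the GCE/+ pair these markers were higher in replicate 2 by a median of 0.73 on the log2 scale, and Runx2 and Trps1 were also higher in replicate 2, but Dlx5 and Dlx6 were lower there. The share of cartilage cells in the sort cannot be told from these bulk libraries, since more cells of a type and more RNA per cell cannot be told apart, and the part of these markers in the Runx2 and Trps1 results was not tested.

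Of 5 tendon markers, Mkx, Fmod and Tnmd passed as higher and Kera as lower. The remaining marker, Scx, measured 9.99 and 7.10 CPM in GCE/+ against 13.6 and 13.8 CPM in GCE/GCE embryos, with no overlap. DESeq2 called Scx higher (adjusted p 0.0184), while its adjusted p by edgeR was 0.131. Macrophage markers were lower for 16 of 16, 12 of them past the threshold, with sums of 401 and 411 CPM in GCE/+ and 253 and 174 CPM in GCE/GCE embryos. Runx1 and Runx3 are also expressed in blood cells. Within the GCE/GCE pair Runx1 (52.5 and 39.3 CPM), Runx3 (10.5 and 7.89 CPM) and the macrophage sum were all lower in replicate 2. Within the GCE/+ pair the macrophage sum was higher in replicate 2, and Runx1 and Runx3 were not. Between genotypes Runx1 was wholly higher in GCE/GCE cells and Runx3 overlapped. Epidermal and apical ridge markers, of interest because Dlx5, Dlx6 and Msx2 are ridge genes, summed to 29.2 and 32.1 CPM against 36.1 and 35.5 CPM, and none of 13 tested passed in edgeR (4 at an unadjusted p under 0.05, and Krt18 by DESeq2). The higher sum in GCE/GCE embryos rested on Krt18, a keratin of simple epithelia, since without it the sums were 20.4 and 22.6 CPM against 21.8 and 22.9 CPM and overlapped. In the remaining marker lists edgeR called Pf4 of 4 megakaryocyte markers as lower and, of 8 fibroblast markers, Osr1 itself. DESeq2 called 5 of the 8 fibroblast markers lower (Osr1, Dcn, Lum, Col3a1 and Tcf7l2), and 4 had an unadjusted p under 0.05 in edgeR, all lower. Neither edgeR nor DESeq2 called any of 6 endothelial, 6 myogenic, 4 erythroid, 4 Schwann or 2 lymphoid and mast cell markers, and at an unadjusted p under 0.05 edgeR placed 3 endothelial markers as lower and 1 myogenic marker as higher. The part of these cells in the Dlx, Runx1 and Runx3 values was not tested.

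The genes closest to Runx2 and Trps1 in pattern were sought among the 9763 genes averaging 10 CPM or more, by the Euclidean distance of log2 deviations over the 4 libraries. For Runx2 the nearest were Mkx (distance 0.255), a tendon homeobox factor, Fat3 (0.278), an atypical cadherin, and Col11a1 (0.283). Mkx averaged 24.1 ± 1.30 CPM in GCE/+ and 51.2 ± 4.57 CPM in GCE/GCE embryos (SD, n = 2 each). For Trps1 the nearest were Dlg2 (0.0689), Hmcn1 (0.0745) and Col9a2 (0.0775), of which Hmcn1, a giant basement membrane gene, measured 106 and 119 CPM against 162 and 176 CPM. All of these 6 genes were also called higher, which follows largely from choosing genes close to Runx2 and Trps1. In addition, 4 libraries describe a pattern only coarsely.

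Partners and pathway genes around these factors were then counted. Lists of Runx cofactors, growth plate regulators, other Dlx and Msx genes, limb homeobox genes, BMP genes and the osteoblast genes above named 108 different genes, of which 99 were tested and 1 passed, as lower, where 1.82% of all genes passed. With DESeq2, 5 of them passed (all genes, 3.45%), and at an unadjusted p under 0.05 in edgeR 13 did (all genes tested, 10.5%). The genotypes did not overlap for 36 of the 99 (all genes tested, 38.4%).

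None of the 31 Runx cofactors and repressors passed by edgeR or DESeq2, and their median log2 fold change was 0.05. The most abundant were Atf4, Yap1, Smad5 and Ep300, with log2 fold changes of -0.09, 0.12, 0.20 and 0.19. Yap1, a transcriptional co-activator that binds Runx proteins, measured 294 and 312 CPM against 320 and 339 CPM. Unadjusted, 2 of the 31 had a p under 0.05, both higher.

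Growth plate regulators gave 0 calls of 11 tested (median 0.20, 1 with an unadjusted p under 0.05 and 0 by DESeq2). Gli3, Vegfa, Pth1r and Mef2c led the list in level. Gli3, the hedgehog pathway repressor, measured 197 and 227 CPM against 268 and 247 CPM with a log2 fold change of 0.28 (SE 0.10). Vegfa, Pth1r and Mef2c had log2 fold changes of 0.08, -0.13 and 0.04. Col10a1, the gene of hypertrophic cartilage that Runx2 activates, was near the floor at 0.115 and 0.402 CPM in GCE/+ and 0.396 and 0.180 CPM in GCE/GCE embryos.

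The other Dlx and Msx genes were scarce, and 0 of 6 tested passed (0 by DESeq2 and 0 at an unadjusted p under 0.05). Dlx3 measured 1.76 and 2.49 CPM against 2.19 and 1.60 CPM, and Dlx2 1.51 and 1.63 CPM against 2.22 and 1.55 CPM, both with overlap. Dlx1 had a log2 fold change of 0.57 (SE 0.39) and also overlapped.

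Of the limb homeobox genes 0 of 16 tested passed, with 2 at an unadjusted p under 0.05 and 2 called lower by DESeq2. The genes called lower by DESeq2 were Alx1 and Meis3, with log2 fold changes of -0.89 and -0.58 and no overlap between genotypes. Their adjusted p was 0.0575 and 0.0132 by DESeq2, and 0.108 and 0.113 by edgeR's quasi-likelihood test. Prrx1, the factor of limb mesenchyme, measured 466 and 476 CPM against 438 and 499 CPM with overlap. Meis2 and Meis1 overlapped between genotypes as well.

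Among 25 BMP pathway genes Bmp4 was called, as lower. Bmp4, a ligand that induces Msx genes, measured 53.8 and 51.96 CPM in GCE/+ and 40.2 and 41.0 CPM in GCE/GCE embryos. Its log2 fold change was -0.38 (SE 0.08) with an adjusted p of 0.0988 (edgeR), just inside the threshold. DESeq2 called Bmp4 lower and Bmp5 higher, the latter at 34.1 and 42.1 CPM against 52.5 and 51.8 CPM (log2 fold change 0.45, SE 0.11, DESeq2 adjusted p 0.0299, edgeR 0.129). At an unadjusted p under 0.05 edgeR placed 4 of the 25 as higher and 1 as lower. The abundant target genes Id2, Id3 and Id1, which like the Msx genes respond to BMP, had log2 fold changes of -0.09, -0.06 and -0.15, and none passed. Id2 and Id1 lay wholly lower in GCE/GCE embryos and Id3 overlapped, where 19.1% of all genes tested lay wholly lower. The receptor Bmpr1a overlapped between genotypes.

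**Figure D4:**
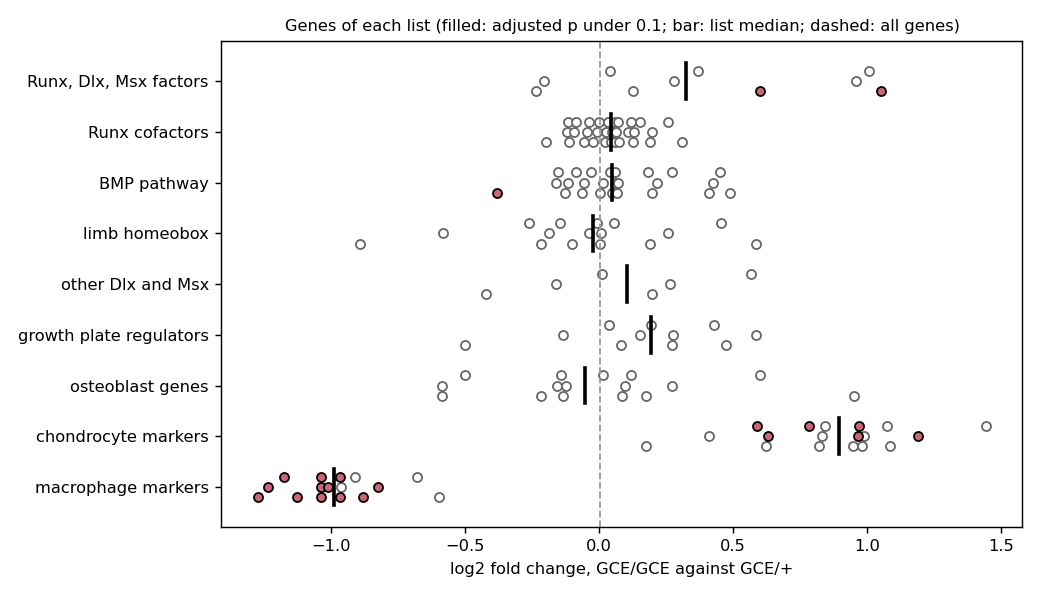
Log2 fold change, GCE/GCE against GCE/+ (x axis), of the tested genes of each list (rows); filled points passed an adjusted p of 0.1, thick bars are list medians and the dashed line is the median of all genes tested. The 10 factors have a median of 0.33 with Runx2 and Trps1 filled, the cofactor, BMP, homeobox and osteoblast lists lie around 0, chondrocyte markers have a median of 0.89 and macrophage markers of -0.99.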

How the data were processed

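RNA of live GFP-positive cells sorted from E13.5 limbs (2 Osr1 GCE/+ and 2 Osr1 GCE/GCE embryos) was sequenced from TruSeq v2 libraries as paired-end reads. The authors mapped the reads to mm9 with TopHat2 and counted them with HTSeq on a UCSC gene model, and the deposited values are raw counts per gene, 1 file a sample, with no normalisation. Reads that could belong to more than 1 gene are lost in this counting, which may lower genes with overlapping neighbours. Groups were taken from the sample labels.

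Genes were filtered with filterByExpr, scaled by TMM and tested with edgeR 4.0.16 (R 4.3.3, limma 3.58.1), glmQLFit and glmQLFTest with genotype as the only term, and called at a Benjamini-Hochberg adjusted p under 0.1 over all genes tested. Standard errors were derived from the F statistic. CPM used TMM-scaled library sizes, and levels per kb used the longest GENCODE vM21 transcript on GRCm38, for which 97.9% of symbols were matched by name. Coordinates and sequences are from GRCm38 and RefSeq GRCm38.p6, and none were converted from mm9. Figures were drawn with matplotlib 3.10.9.

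The members and lists were chosen with earlier results of these data known. The genes named are the 10 members, Osr1, called genes or up to 4 abundant genes of each list, up to 3 genes and the sum of each marker list, and the 3 genes nearest in pattern to each called member. Col10a1, Bmp5, Krt18, Dcn, Lum, Tcf7l2, Ibsp, Spp1, Bglap, Bglap2, Xist and the neighbours of members were named after their values were seen. The same holds for Phex, Panx3, Tnfrsf11b, Alx1, Meis3, Scx and Comp. Alternatives were DESeq2 1.42.0, RLE and upper-quartile scaling, other count filters, a replicate block, offsets for transcript length, an adjusted p of 0.05, each embryo left out in turn and, added after seeing the data, edgeR's older quasi-likelihood fit and the epidermal marker sum without Krt18. The scripts were tested on simulated data. With 2 embryos a group, p-values set the difference between genotypes against a spread between embryos that the fit pools across genes.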

Additional observations from a re-analysis of the deposited data

How the results depend on the processing

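Runx2 was higher and past the threshold under all 14 alternatives, and Trps1 was higher under all 14 and past it under 12. Dlx5 passed with DESeq2, with length offsets (adjusted p 0.0961, or 0.0903 with the block), without GCE/+ replicate 1 (0.0674) and without GCE/GCE replicate 1 (9.28e-05). With the replicate number as a block, 290 genes passed in place of 285 and Runx2 had a log2 fold change of 1.05 (edgeR adjusted p 0.0139). Same-numbered samples did not deviate together (correlation -0.02 over 15645 genes), and the block changed no call of a member. With so few embryos a genotype, this correlation cannot decide whether the replicate numbers are a pairing.

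The number of genes called was 127 with no filter on low counts, 480 with length offsets and the block, 508 with DESeq2 and 130 at an adjusted p of 0.05, and ranged from 199 to 961 with 1 embryo left out, reaching 961 without GCE/+ replicate 2 and 748 without GCE/GCE replicate 1. Of the 10 factors 1 passed with no filter, and 2 to 3 with 1 embryo left out. The context lists, with 1 call, gave 0 with upper-quartile scaling, no filter, the older fit or an adjusted p of 0.05, 5 with length offsets and the block, 5 with DESeq2, and 0 to 14 with 1 embryo left out (14 without GCE/+ replicate 2, 7 without GCE/GCE replicate 1). With 1 embryo left out the direction turned for Msx1 (log2 fold change from -0.90 to 1.22, and 0.07 without GCE/GCE replicate 1), Runx3 (from -0.10 to 0.31) and Cbfb (from -0.066 to 0.13). The cause of these shifts was not tested. Where an embryo was left out, the lone sample was assumed to vary like the other genotype. Counts of Dlx6 and Msx1 under 100 in every library limit what these genes can show.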
